A study of Mus musculus with 10 samples.

Results

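KO clones 1 and 2 are mpkCCD cell clones in which a CRISPR guide was aimed at exon 8 of Camk2d, the gene of Ca2+/calmodulin-dependent protein kinase 2 delta. These 2 clones were compared with the 5 Camk2d-intact samples, so 7 of the 10 RNA-seq samples of the series carry the comparison. The other 3 samples, KO clones 3 to 5, were made with a guide for exon 9 and are used as a contrast. mpkCCD cells are an immortalized mouse line with features of collecting duct principal cells. All groups, controls included, were grown with dDAVP, an agonist of the vasopressin V2 receptor, at 0.1 nM for 7 days. The intact group holds the parental line (1 sample) and 2 intact clones that went through transfection and sorting but kept CAMK2D (2 samples each, called 1_1, 1_2, 2_1 and 2_2), which makes 3 intact cell lines. Each KO clone is a single-cell clone measured once, so an effect of the edit and a trait of the clone cannot be told apart within one clone. The labels number the KO clones without naming the guide, which was taken from the study. The sources do not say whether the paired samples of an intact clone were separate cultures, so p-values over the 5 intact samples may measure technical spread.

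CAMK2 kinases are switched on by Ca2+-loaded calmodulin and phosphorylate serine and threonine residues of many proteins. In principal cells, vasopressin raises cAMP and intracellular Ca2+, moves vesicles that carry the water channel aquaporin-2 to the apical membrane, and increases transcription of the aquaporin-2 gene, Aqp2. The study deleted Camk2d to look for proteins downstream of the kinase by phosphoproteomics, and the RNA measurements give the transcripts of the same clones.

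The targeted exon is shown first, together with Snord59a, the most abundant of the RNAs that were above 0 in both exon 8 clones and listed at 0 in every other sample. Exon 8 of Camk2d lies at chr3:126783955-126784038 on the plus strand of GRCm38, is 84 bases long, and is given in lower case. Snord59a is a C/D box small nucleolar RNA of 74 bases at chr10:128084143-128084216 (plus strand, GRCm38), inside the gene Atp5b. Capitals mark its C box (TGATGA) and the last match to the D box (CTGA). Both are printed 5′ to 3′ from the GENCODE M21 annotation.
Camk2d exon 8: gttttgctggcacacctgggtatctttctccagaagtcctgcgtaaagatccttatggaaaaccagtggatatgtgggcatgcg
Snord59a: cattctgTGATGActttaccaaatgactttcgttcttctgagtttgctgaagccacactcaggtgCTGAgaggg

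Expression was given in TPM, which scales each gene by its length and by the total of its sample. This unit does not hold the number of reads, so the depth is unknown and intervals for counting error are not given. Of 55414 genes in the table, 13093 had a mean of at least 1 TPM over the 7 samples and were tested. Aqp2, Fxyd4 and Gata3 were the most abundant of 10 principal cell markers. Several defining markers of other cells were at 0 in all 7 samples, namely Col1a2, Col3a1, Lum and Postn of fibroblasts, Cdh5, Kdr, Emcn and Tek of endothelium, and Slc12a1, Umod and Pvalb of the thick limb and distal tubule. The endothelial list as a whole, led by Egfl7, summed to 52.4 to 70.03 TPM in intact samples and to 54.8 and 61.6 TPM in KO clones 1 and 2, and the podocyte list, led by Podxl, to 44.8 to 50.6 TPM and to 44.9 and 62.6 TPM. The 14 intercalated cell markers summed to 13.9 to 103 TPM in intact samples and to 175 and 91.9 TPM in KO clones 1 and 2, with Atp6v1g3, Atp6v0d2, Kit and Insrr at 0. The 10 urothelial and squamous markers summed to 1040 to 1141 TPM in intact samples and to 1210 and 725 TPM in the clones. The part of these marker sums in the results was not tested.

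Camk2d fell most of the 36 genes that limma called lower. It measured 141, 134, 135, 129 and 123 TPM in the intact samples (parental, 1_1, 1_2, 2_1 and 2_2) and 25.5 and 19.8 TPM in KO clones 1 and 2, which is 19.3% and 14.9% of the intact mean of 132 ± 6.97 TPM (SD, n = 5). Both clones lay far below the narrow intact range. The log2 ratio on the log2(TPM + 1) scale, used throughout, was -2.51 (standard error 0.10, limma adjusted p = 9.17e-05). With 1 mean value for each of the 3 intact cell lines, the adjusted p was 0.0181. Camk2d transcript was thus reduced but still present in both clones. Of the other isoforms, Camk2b was 7.63 to 14.2 TPM in intact samples and 16.6 and 10.2 TPM in the clones, and Camk2g was 4.10 to 6.99 TPM and 3.90 and 6.55 TPM. Camk2a did not exceed 0.04 TPM in these samples.

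Across all genes tested, limma called 12 genes higher (0.0917% of 13093) and 36 lower (0.275%) in the clones than in the 5 intact samples, while 1999 had an unadjusted p under 0.05. Of the 12, 5 were listed at 0 in every intact sample and entered the test only through the clones where they were high, so their calls are no support for a difference. Rescaling the samples by median ratios gave 8 higher and 46 lower, and a test of the 11109 protein-coding genes alone gave 10 and 32. Centring these protein-coding genes by coding length gave 1 and 13. Both settings on protein-coding genes were chosen after seeing the data. With 1 intact sample left out, 11 to 28 genes were called, the fewest without 2_1 and the most without the parental line. All 12 genes lay above every intact sample in both clones, and all 36 lay below. With 1 value per intact line, 2 genes were called higher (0.0153%) and 1 lower (0.00764%), and 1074 had an unadjusted p under 0.05. Those called higher, Snord59a and n-R5s33, are among these 5, which leaves Camk2d as the call of this fit that does not depend on the filter. With a random effect for cell line, which treats paired samples of an intact clone as related (consensus correlation 0.69), 5 genes were called higher, all of them at 0 in every intact sample, and 10 lower. A gene was described as moved alike where each clone differed by at least 2-fold from the mean of the 3 intact lines, in the same direction, and lay outside the range of the 5 intact samples. By this description 26 genes were higher (0.199%) and 16 lower (0.122%). Their number, 42, became 91 with a pseudocount of 0.1, 21 at a mean of at least 5 TPM and 19 (11 higher, 8 lower) among protein-coding genes alone, where centring by coding length gave 20 (9 higher, 11 lower). For a single gene, an exact permutation test of 2 against 5 samples cannot give a two-sided p below 0.0952.

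Among the 16 genes lower alike, 7 passed limma over the 7 samples, namely Camk2d, Sprr2g, Gsdmc4, Aqp2, Gsdmc3, Gm10443 and B230206L02Rik. Sprr2g, of the small proline-rich family of the cornified envelope (a polymorphic pseudogene in GENCODE M21), measured 23.9, 39.9, 46.00, 28.4 and 25.1 TPM in intact samples and 7.52 and 6.04 TPM in KO clones 1 and 2 (log2 ratio -2.07, standard error 0.26, limma adjusted p = 0.0282). The clones lay close together below the lowest intact sample, and KO clones 3 to 5 measured 23.1, 29.4 and 22.6 TPM. Gsdmc4, one of a cluster of similar gasdermin C genes that code for membrane pore proteins, was 12.6, 16.1, 15.8, 12.8 and 16.1 TPM in intact samples and 4.01 and 4.04 TPM in the clones (log2 ratio -1.63, adjusted p = 0.00355). Its neighbours in the family were low as well, with Gsdmc3 at 0.96 and 1.21 TPM against 3.92 to 6.36 TPM (adjusted p = 0.0296) and Gsdmc2 at 8.51 and 3.25 TPM against 18.96 to 33.1 TPM (adjusted p = 0.0784). KO clones 3 to 5 lay below every intact sample in these 3 genes too, at 10.3, 5.65 and 6.71 TPM for Gsdmc4, 3.06, 1.25 and 2.20 TPM for Gsdmc3 and 8.16, 4.37 and 11.2 TPM for Gsdmc2. With the line as a random effect the adjusted p was 0.0202 for Gsdmc4 and 0.0859 for Gsdmc3. The pseudogene Gsdmcl-ps was 0.19 and 0.10 TPM in the clones and 0.66 to 2.67 TPM in intact samples (adjusted p = 0.192). Reads can be split between such copies, so values of single gasdermin C genes and of the Sprr2 family are uncertain. Outside the gasdermin C group, Gsdma was 0.55 and 1.23 TPM against 0.83 to 1.27 TPM and Gsdme was 7.90 and 12.7 TPM against 7.00 to 9.28 TPM. Of the remaining genes that passed, the processed pseudogene Gm10443 was 7.44 and 8.87 TPM against 20.6 to 28.1 TPM (adjusted p = 0.0086), and the non-coding B230206L02Rik was 0.91 and 2.52 TPM against 5.98 to 9.27 TPM (adjusted p = 0.0494, and 0.113 with the line as a random effect).

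Other genes lower alike did not pass limma. C3, the central component of complement, measured 105, 174, 164, 102 and 113 TPM in intact samples and 43.96 and 14.97 TPM in KO clones 1 and 2 (log2 ratio -2.27, standard error 0.39, limma adjusted p = 0.0784). Both clones were below every intact sample, KO clone 2 by more, and the exon 9 clones were at 148, 137 and 151 TPM. Ppic, the gene of cyclophilin C, was 3.58 to 15.7 TPM in intact samples and 2.26 and 0.33 TPM in the clones (adjusted p = 0.207). Miga1, which codes for an outer mitochondrial membrane protein, was 0.95 to 7.09 TPM and 0.76 and 0.09 TPM (adjusted p = 0.274). The intact samples of both genes spread widely. Snord17, a small nucleolar RNA, was 1.56 to 4.41 TPM in intact samples and listed at 0 in both clones (adjusted p = 0.0686), as was the pseudogene Gm14686 (intact 0.51 to 5.32 TPM, adjusted p = 0.267).

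**Figure D1:**
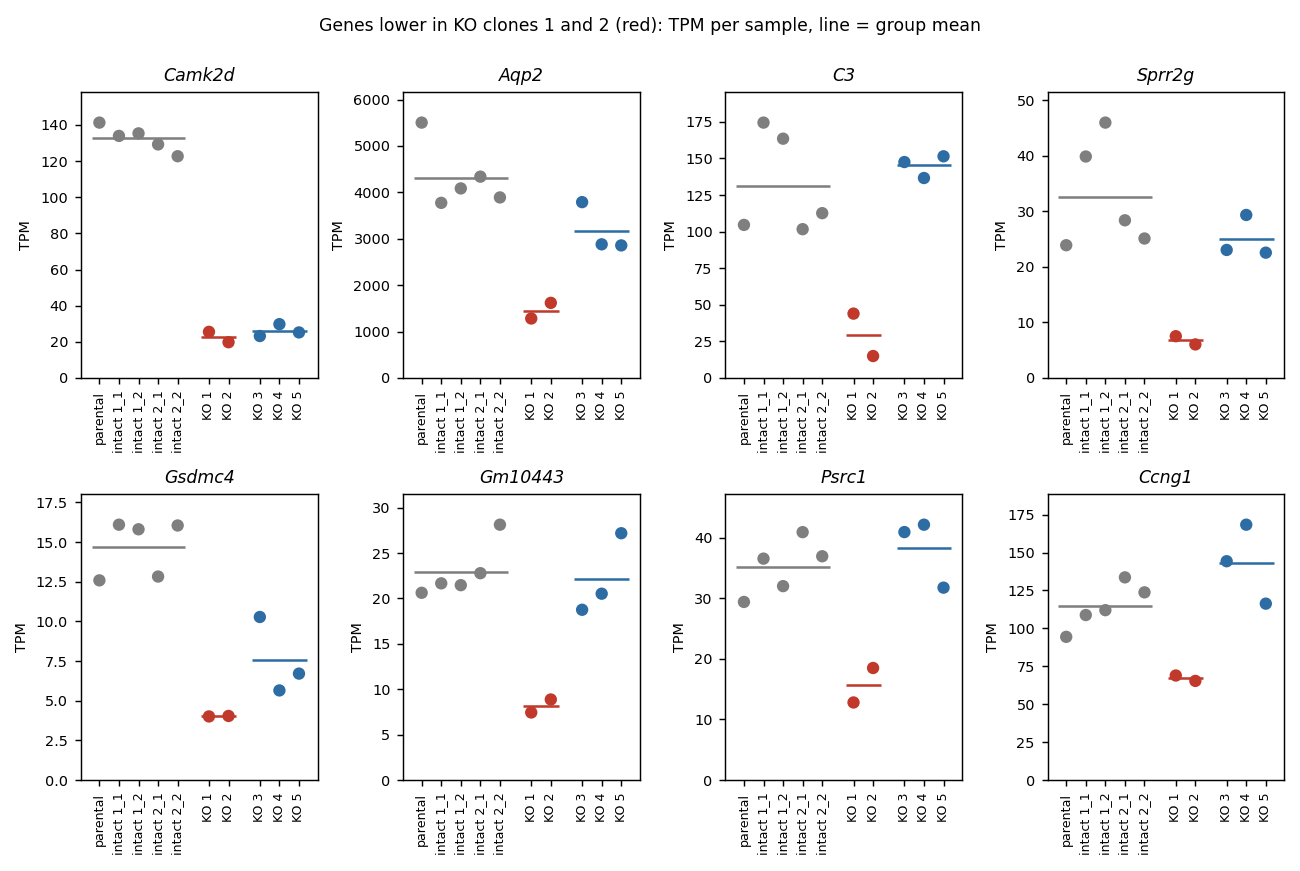
TPM (y axis, linear from 0) of 8 genes in each of the 10 samples (x axis); grey points are the 5 intact samples, red points KO clones 1 and 2, blue points KO clones 3 to 5, and lines are group means. The red points lie below every grey point in all 8 panels, and for Camk2d the blue points, at 23.2, 29.8 and 25.2 TPM, are low as well.

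Aqp2 was the most abundant transcript among the genes lower alike. It measured 5502, 3773, 4084, 4338 and 3889.9 TPM in the intact samples and 1281 and 1618 TPM in KO clones 1 and 2, against 3789, 2879.7 and 2856 TPM in KO clones 3 to 5. Both exon 8 clones lay below all 8 other samples. The log2 ratio to the intact samples was -1.57 (standard error 0.16, limma adjusted p = 0.0109), with an adjusted p of 0.183 over the 3 intact lines and 0.0202 with the line as a random effect. Of 9 tested principal cell markers, 3 lay below every intact sample in both clones and 0 above, where 6.72% of all genes lay below and 12.5% above. Besides Aqp2 these were Fxyd4, a regulator of the sodium pump, at 588 and 194 TPM against 633 to 849 TPM (adjusted p = 0.25), and Avpr2, the vasopressin V2 receptor, at 192 and 114 TPM against 222 to 252 TPM (adjusted p = 0.17). For Fxyd4 and Avpr2, KO clone 2 was lower than KO clone 1. Hsd11b2, an enzyme that inactivates glucocorticoids, differed in direction between the clones, at 11.5 and 115 TPM against 17.8 to 24.5 TPM (adjusted p = 0.567). Scnn1g, a subunit of the epithelial sodium channel, was 14.4 and 18.6 TPM in the clones and 13.4 to 24.6 TPM in intact samples, and the basolateral water channel Aqp3 was 1.79 and 2.92 TPM and 1.10 to 3.34 TPM. In bulk RNA, fewer cells of a type and less RNA per cell cannot be told apart.

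Genes of the vasopressin and cAMP pathway stood near the background. Of 27 tested members, 0 were called by limma, 5 had an unadjusted p under 0.05 (15.3% of all genes did), 4 lay above and 2 below every intact sample (12.5% and 6.72% of all genes), and the median log2 ratio was 0.01 beside 0.04 over all genes. Pde4a, a cAMP phosphodiesterase, was 7.48 and 11.2 TPM in the clones and 5.18 to 7.07 TPM in intact samples (adjusted p = 0.235). Atf1, a transcription factor that binds cAMP response elements, was 39.97 and 42.9 TPM and 30.6 to 32.4 TPM (adjusted p = 0.0686). Gnas, the stimulatory G protein subunit, was 1055 and 1117 TPM and 983 to 1031 TPM (adjusted p = 0.345).

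The Aqp2 promoter and that of Ppargc1a, a gene that was higher in both clones, are shown because cAMP is known to act on both genes. Each run holds the 250 bases before the transcription start in RefSeq on GRCm38.p6, 5′ to 3′ along the gene. Capitals mark the half-site TGACG of the cAMP response element, searched on both strands. The Aqp2 window is chr15:99578806-99579055 (plus strand) and the Ppargc1a window is chr5:51567726-51567975 (minus strand). Each holds 1 match, and 17.8% of 32851 promoter windows hold at least 1. Of 11 genes whose windows were searched, 7 (C3, Ccng1, Gdf15, Gpc4, Gsdmc3, Osbpl6 and Psrc1) have no match, and Slc39a8 and Sox6 have 1 in 1 of their several windows. The AP-1 motif TGANTCA, searched the same way and present in 6.75% of windows, has no match in either.
Aqp2: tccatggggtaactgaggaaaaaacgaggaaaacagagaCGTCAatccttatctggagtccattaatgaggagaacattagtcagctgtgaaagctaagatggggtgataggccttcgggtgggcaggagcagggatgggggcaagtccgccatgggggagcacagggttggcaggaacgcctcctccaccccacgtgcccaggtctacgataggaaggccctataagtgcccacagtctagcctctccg
Ppargc1a: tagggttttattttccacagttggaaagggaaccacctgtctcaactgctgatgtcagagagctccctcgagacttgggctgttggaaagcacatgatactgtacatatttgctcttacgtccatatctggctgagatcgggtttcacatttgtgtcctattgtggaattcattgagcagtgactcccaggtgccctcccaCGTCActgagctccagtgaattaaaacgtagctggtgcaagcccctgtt

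Of the 26 genes higher alike, 16 have a transcript of over 200 bases in GENCODE M21 and 10 are shorter or not in that annotation. Of the 26, 5 were under the limma threshold, and these are the non-coding RNAs listed at 0 in every intact sample. Of the 26, 9 average under 1 TPM in the intact samples, and so had to be high in the clones to be tested. Gpc4, a glypican of the cell surface, was 5.57 TPM in the parental line, 0.19 to 0.67 TPM in the 4 samples of intact clones, and 11.2 and 13.3 TPM in KO clones 1 and 2 (log2 ratio 2.83, standard error 0.64, limma adjusted p = 0.134). Sox6, a transcription factor of the SRY-box family, was 10.6 TPM in the parental line, 1.34 to 5.58 TPM in intact clones and 19.6 and 22.6 TPM in the KO clones (adjusted p = 0.17). Ppargc1a, which codes for the coactivator PGC-1alpha of mitochondrial gene expression, was 17.5, 1.45 to 7.56 and 39.98 and 23.9 TPM in the same order (adjusted p = 0.23). In these 3 genes the parental line was the highest intact sample.

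Slc39a8, a zinc and manganese importer, was 0.29 to 1.80 TPM in intact samples and 22.6 and 6.28 TPM in the clones (log2 ratio 2.68, limma adjusted p = 0.103). Slco3a1, an organic anion transporter, was 2.97 to 20.97 TPM and 28.99 and 35.1 TPM (adjusted p = 0.335). The clones were more alike in Slco3a1 than in Slc39a8. Osbpl6, of the oxysterol-binding protein family, was 2.34 to 5.14 TPM in intact samples and 10.6 and 10.96 TPM in the clones (adjusted p = 0.103). Ncam1, a cell adhesion molecule, was 5.02 to 11.5 TPM and 18.5 and 20.6 TPM (adjusted p = 0.181). Flrt3, another adhesion protein, was 0.51 to 1.34 TPM and 3.04 and 6.05 TPM (adjusted p = 0.0869). Flrt3 averaged 0.97 TPM in intact samples and entered the test only through the clones where it was high, so its p-value is no support. No adjusted p among these genes was under 0.05. Ybx2, Nos1ap and Nipal2 were also higher alike, at 3.89 and 4.39, 8.85 and 9.93 and 6.53 and 4.78 TPM in the clones, with adjusted p of 0.114, 0.141 and 0.122.

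**Figure D2:**
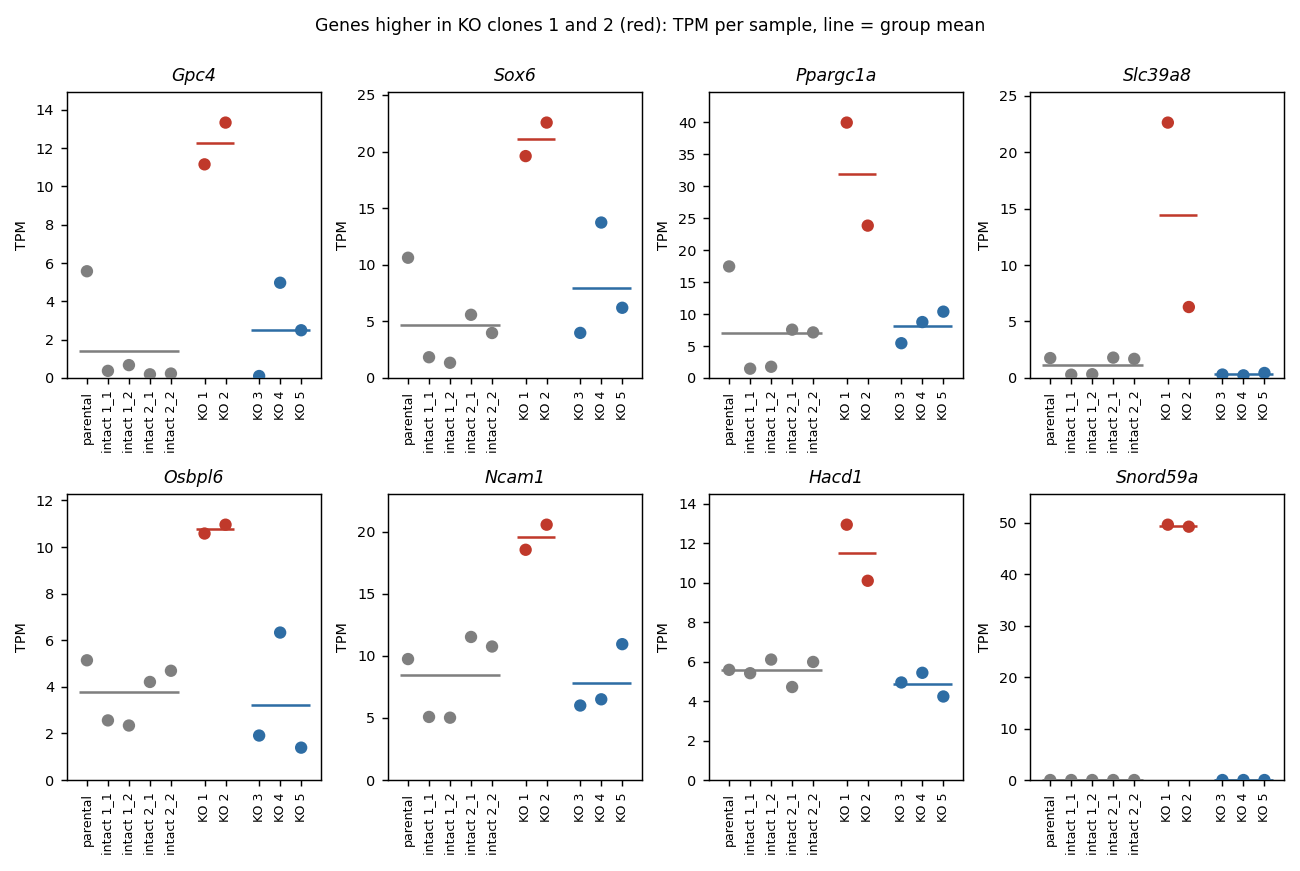
TPM (y axis, linear from 0) of 8 genes in each of the 10 samples (x axis); grey points are intact samples, red points KO clones 1 and 2, blue points KO clones 3 to 5, and lines are group means. Red points lie above every grey point in all 8 panels; the parental line is the highest grey point for Gpc4, Sox6 and Ppargc1a, and Snord59a is at 0 in every sample but the red ones.

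The 5 RNAs listed at 0 in every intact sample are given by their values alone. Snord59a, whose sequence is printed above, was 49.7 and 49.3 TPM in KO clones 1 and 2 and listed at 0 in the 8 other samples. Its host gene Atp5b, a subunit of ATP synthase, was 4308 and 4208 TPM in the clones and 3715 to 3919 TPM in intact samples (limma adjusted p = 0.248). n-R5s33, a ribosomal RNA gene, was 6.34 and 6.37 TPM in the clones and at 0 in the 8 other samples, and so was the small nucleolar RNA Gm22520, with 4.86 and 4.89 TPM in the clones. The remaining RNAs were above 0 in some exon 9 clones too. Gm22079, a small nuclear RNA, was 19.1 and 9.57 TPM in the clones, 9.52 TPM in KO clone 3 and 0 in intact samples. Gm29434, annotated as antisense, was 3.47 and 3.88 TPM in the clones, 0, 1.24 and 0.95 TPM in KO clones 3 to 5 and 0 in intact samples. The number of reads behind these values is unknown. Without the 368 tested genes of up to 200 bases or outside GENCODE M21, an alternative chosen after seeing the data, 11 genes were called higher and 44 lower.

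The 7 protein-coding genes called higher had smaller changes and little spread between samples. Hacd1, an enzyme of very long chain fatty acid synthesis, measured 5.58, 5.41, 6.10, 4.71 and 5.98 TPM in intact samples and 12.9 and 10.1 TPM in KO clones 1 and 2 (log2 ratio 0.93, standard error 0.13, limma adjusted p = 0.0458). Pnpla2, the adipose triglyceride lipase, was 74.2 to 77.8 TPM in intact samples and 111 and 101 TPM in the clones (log2 ratio 0.47, adjusted p = 0.0296). Both genes act on fatty acids or their stores. Vegfb, a vascular growth factor, was 70.5 to 73.98 TPM and 96.2 and 108 TPM (adjusted p = 0.0296), and Ak3, a mitochondrial adenylate kinase, was 161 to 170.2 TPM and 221 and 213 TPM (adjusted p = 0.0328). Atg4d, a protease of autophagy, was 59.4 to 68.5 TPM and 94.05 and 85.6 TPM (adjusted p = 0.0495). Lrrc1, a scaffold protein, had an adjusted p of 0.0441, and Ahnak, a large scaffold protein, was 54.4 to 60.04 TPM and 75.2 and 78.9 TPM (adjusted p = 0.0469). With 1 value per intact line or the line as a random effect none of the 7 passed, and Vegfb was the only one called after centring by coding length, an alternative chosen after seeing the data.

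Ribosomal protein genes made up 14 of the 36 genes called lower. Of 78 tested genes for proteins of the cytosolic ribosome, 56 (71.8%) lay below every intact sample in both clones and 0 above, beside 6.72% and 12.5% of all genes. Their median log2 ratio was -0.30, beside 0.04 over all genes. Rps29 measured 629, 682, 637, 656 and 680.3 TPM in intact samples and 381 and 345 TPM in KO clones 1 and 2 (log2 ratio -0.85, standard error 0.06, limma adjusted p = 0.00276). Rps28 was 459 to 516 TPM and 290.0 and 271 TPM (adjusted p = 0.00365), Rpl38 was 409 to 465 TPM and 262 and 256 TPM (adjusted p = 0.00541), and Rps21 was 147 to 166 TPM and 90.7 and 96.6 TPM (adjusted p = 0.00931). The clones lay close together in all 4 genes. With the line as a random effect 5 ribosomal protein genes were called, Rps29, Rps28, Rpl38, Rpl37a and Rps26, and with 1 value per intact line 0 were. With 1 intact sample left out, 4 (without 2_1) to 9 (without the parental line) were called, and 56 to 58 lay below every remaining intact sample. The median over the 78 genes was -0.31 and -0.25 log2 units from the intact mean in KO clones 1 and 2, between -0.05 and 0.08 in intact samples, and 0.03, -0.08 and 0.07 in KO clones 3 to 5. These genes have processed pseudogene copies, between which reads may be split.

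Coding length moved with this result, and its part in it was examined only as far as the values here go. The 30 protein-coding genes called lower had a median coding length of 310.5 bases, beside 1371 bases over 11109 protein-coding genes. Among 224 other genes with up to 300 coding bases, the median difference from the intact mean was -0.12 and -0.07 in KO clones 1 and 2, and 25.9% lay below every intact sample. Among the 9 ribosomal protein genes of that length it was -0.64 and -0.76, and all 9 lay below. In the longest class plotted for ribosomal protein genes, 20 ribosomal protein genes had medians of -0.12 and -0.19, and 1550 other genes 0.03 and 0.05. Both clones had lower medians for ribosomal protein genes than for other genes in each of the 4 length classes plotted for both groups, which hold 74 of the 78. The other 4 are longer, with differences from the intact mean of -0.04 and 0.37 in Rpl4, 0.14 and 0.44 in Rplp0, 0.05 and -0.16 in Rpl3, and -0.02 and -0.25 in Rps2. When each sample was centred within bins of coding length, an alternative chosen after seeing the data, 57 of the 78 lay below every intact sample, beside 9.72% of protein-coding genes, and 7 rather than 14 were called.

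**Figure D3:**
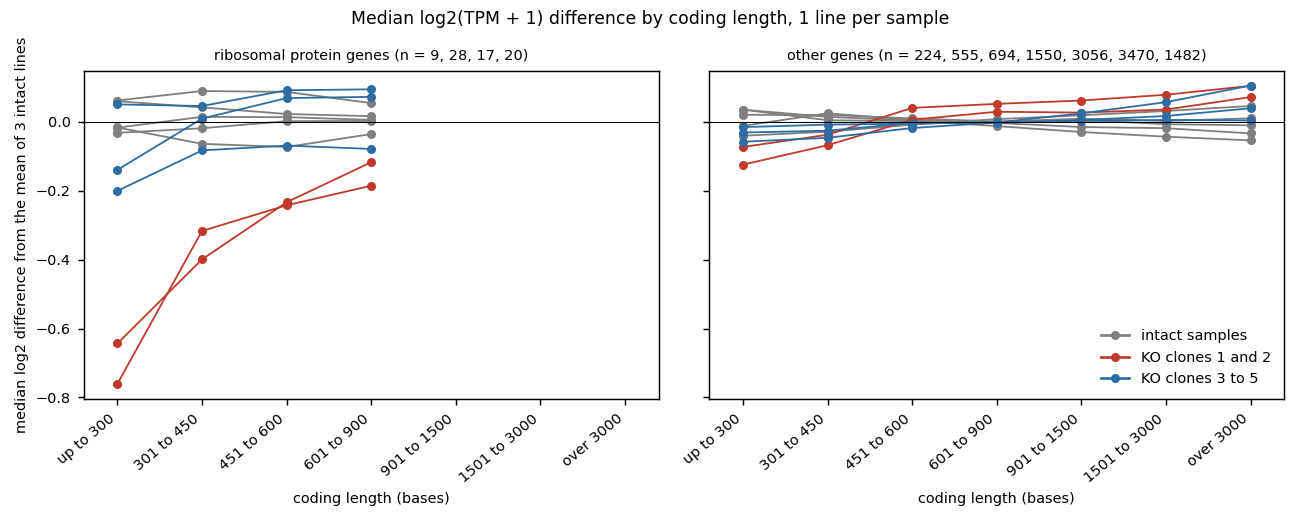
Median difference in log2(TPM + 1) from the mean of the 3 intact lines (y axis) by class of coding length in bases (x axis), with 1 line per sample, for ribosomal protein genes and for other protein-coding genes. For ribosomal protein genes the red lines of KO clones 1 and 2 run from -0.64 and -0.76 in the shortest class to -0.12 and -0.19 in the longest of their 4 classes, with 4 longer genes left out; for other genes they run over 7 classes from -0.12 and -0.07 to 0.07 and 0.10.

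Nuclear genes of oxidative phosphorylation, the respiratory chain and ATP synthase, lay below the intact samples at a larger share than all genes did. Of 88 tested genes, 34 (38.6%) lay below and 15 (17.0%) above every intact sample in both clones, beside 6.72% and 12.5% of all genes, and limma called 2 lower, both accessory subunits of complex I. Ndufa3 was 557 to 629 TPM in intact samples and 410.4 and 377 TPM in the clones, and Ndufa1 was 256 to 283 TPM and 193 and 179 TPM (limma adjusted p = 0.027 for Ndufa3 and 0.027 for Ndufa1). Both calls were lost with the line as a random effect (adjusted p = 0.0941 and 0.107). Among those above, Sdhd of complex II was 454 and 553 TPM against 362 to 398 TPM (adjusted p = 0.12) and Uqcrc1 of complex III was 433 and 572 TPM against 374 to 409.8 TPM (adjusted p = 0.191). The median coding length was 315 bases for the genes below, 894 bases for those above and 505.5 bases for those in neither class. After centring by coding length, 29 of 86 lay below and 12 above, beside 9.72% and 8.83% of protein-coding genes. Atpif1, an inhibitor of ATP synthase, was called lower, at 775 to 833 TPM in intact samples and 620.3 and 602 TPM in the clones (adjusted p = 0.0296, and 0.0941 with the line as a random effect). Of 78 mitochondrial ribosomal proteins, 8 lay above and 8 below, with a median log2 ratio of -0.02.

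Targets of p53, the transcription factor activated by DNA damage, included 11 genes that lay below the intact samples in both clones. Of 31 tested, these 11 make 35.5%, and 1 lay above every intact sample, beside 6.72% and 12.5% of all genes, and limma called 1. Psrc1, which acts on the mitotic spindle, measured 29.4, 36.5, 32.00, 40.9 and 36.9 TPM in intact samples and 12.8 and 18.5 TPM in KO clones 1 and 2 (log2 ratio -1.13, standard error 0.16, limma adjusted p = 0.0458). It was the gene called, and the call was lost with the line as a random effect (adjusted p = 0.119). Ccng1, the gene of cyclin G1, was 94.4, 109, 112, 134 and 124 TPM in intact samples and 68.9 and 65.4 TPM in the clones (log2 ratio -0.75, adjusted p = 0.0699). Gdf15, a secreted stress cytokine, was 66.3 to 96.8 TPM and 41.2 and 39.6 TPM (adjusted p = 0.0782), Trp53inp1 was 10.99 to 16.6 TPM and 7.93 and 7.75 TPM (adjusted p = 0.126), and Cdkn1a, the cell cycle inhibitor p21, was 316 to 419.6 TPM and 267 and 278 TPM (adjusted p = 0.141). Both clones lay below every intact sample in each of these genes. Zmat3, Pmaip1, Bax, Mdm2 and Aen also lay below, with log2 ratios of -0.52, -0.29, -0.26, -0.24 and -0.15, while Dcxr was 109.9 and 41.4 TPM against 112 to 130.2 TPM. Apart from Zmat3, the parental line was the lowest intact sample in each of the 11 genes. KO clone 2 lay only just below that line in Pmaip1 (22.60 against 22.73 TPM) and Aen (32.87 against 33.01 TPM). The gene above was Xpc, of nucleotide excision repair, at 31.4 and 33.9 TPM against 28.5 to 31.1 TPM. Trp53, the transcript of p53 itself, was 229 and 252 TPM in the clones and 231 to 253 TPM in intact samples, and the sign of its log2 ratio of -0.01 changed between settings.

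The median over the 31 p53 targets was -0.18 and -0.11 log2 units from the intact mean in KO clones 1 and 2, between -0.07 and 0.06 in intact samples, and 0.08, 0.26 and 0.04 in KO clones 3 to 5. Ccng1 was 144, 168 and 116 TPM in KO clones 3 to 5, and its log2 difference between exon 8 and exon 9 clones was -1.06 (standard error 0.16, limma adjusted p = 0.0335). For Psrc1, at 40.9, 42.1 and 31.8 TPM in KO clones 3 to 5, the difference was -1.25 (adjusted p = 0.0247). With 1 value per intact line this contrast called 0 genes lower, so neither call was kept. For Gdf15 it was -0.70 (adjusted p = 0.295), with KO clone 5 at 42.9 TPM. Rescaling, quantile normalization and both length centrings left 10 to 12 of the 31 below every intact sample, where 9.44% to 9.72% of the genes tested lay below.

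**Figure D4:**
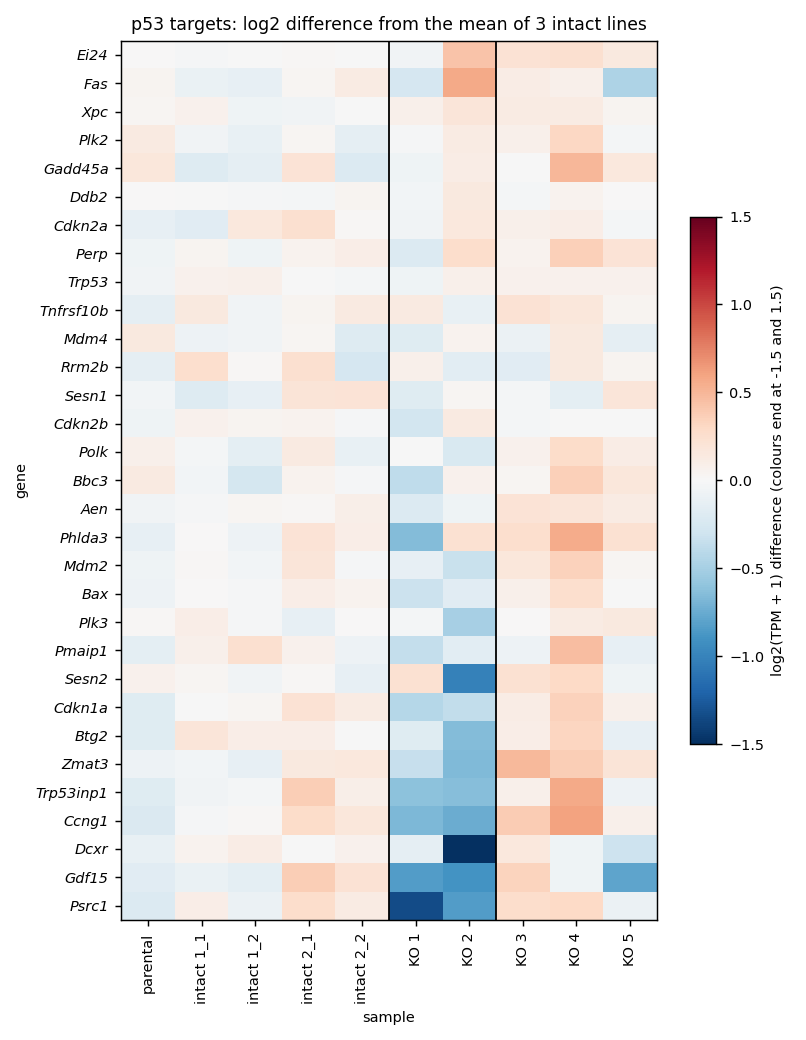
Difference in log2(TPM + 1) from the mean of the 3 intact lines (colour, blue lower and red higher) for 31 p53 targets (rows) in 10 samples (columns: 5 intact samples, KO clones 1 and 2, KO clones 3 to 5). Psrc1, Gdf15, Ccng1, Trp53inp1 and Cdkn1a are lower in both KO clone 1 and KO clone 2, while Sesn2 and Phlda3 are lower in 1 of them only.

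Genes for collagens, laminins, integrins and matrix lay above the intact samples at a larger share than all genes did. Of 29 tested genes of this list, 9 (31.0%) lay above every intact sample in both clones and 1 below, beside 12.5% and 6.72% of all genes, 0 were called by limma, and the median log2 ratio was 0.20. The median difference of the list was 0.15 and 0.26 in KO clones 1 and 2, between -0.08 and 0.08 in intact samples, and -0.01, 0.21 and 0.04 in KO clones 3 to 5. The laminin chains Lamb2, Lamb3, Lamc1 and Lama5 were among the 9. Lama3 was 4.75 and 23.9 TPM against 8.43 to 10.5 TPM, in opposite directions in the clones, and Lamb1 (159.8 and 146 TPM against 120.3 to 149 TPM) did not lie above every intact sample, nor did the collagen IV chains Col4a1 and Col4a2, with log2 ratios of -0.08 and 0.06. Lamb3 was 70.2 to 80.2 TPM in intact samples and 97.5 and 105 TPM in the clones (limma adjusted p = 0.083), and Lamb2 was 60.3 to 67.5 TPM and 75.9 and 118 TPM (adjusted p = 0.18). KO clone 2 was the higher clone in both. The gene below was Thbs1, the matrix protein thrombospondin 1, at 111 and 154 TPM against 162 to 202 TPM. After rescaling by median ratios or centring by length 6 of the 29 lay above, beside 8.39% (rescaling) and 8.83% (both centrings) of the genes tested, and after quantile normalization 8, beside 8.41%.

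Smaller upward shifts moved with the scaling. The shares of all genes above and below every intact sample, 12.5% and 6.72%, became 8.39% and 9.48% after rescaling by median ratios. Of 43 tested genes of vesicle trafficking and AQP2 exocytosis, 12 lay above and 2 below, but 3 above and 5 below after that rescaling. Stx3, a SNARE of the apical membrane, was 39.6 to 47.9 TPM in intact samples and 55.2 and 53.04 TPM in the clones (limma adjusted p = 0.16), and Myo5b, a vesicle motor, was 15.7 to 17.01 TPM and 12.8 and 11.1 TPM (adjusted p = 0.0975). Of 33 tested genes of glycolysis and the hypoxia response, 9 lay above and 1 below, and 5 and 1 after rescaling. Of 32 genes of fatty acid and lipid metabolism, 7 lay above and 1 below, and 3 and 1 after rescaling. These 3 lists held 0 genes called by limma.

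Some lists of barrier and immune genes had a larger share below every intact sample than the 6.72% of all genes (9.48% after rescaling by median ratios). Of 15 tested genes of the major histocompatibility complex and antigen processing, 5 (33.3%) lay below every intact sample, 0 above, and 0 were called. Tap2, a peptide transporter, was 16.4 to 21.7 TPM in intact samples and 11.2 and 13.6 TPM in the clones (limma adjusted p = 0.116). Of 37 tested genes of the type I interferon response, 5 (13.5%) lay below and 0 above, with Isg15 at 21.5 and 22.8 TPM against 24.7 to 34.02 TPM (adjusted p = 0.181). Of 16 tested keratin and cornified envelope genes, 4 lay below and Sprr2g was the 1 called, while Krt23 was 54.3 and 14.5 TPM against 70.5 to 81.4 TPM (adjusted p = 0.19). Of 18 epithelial defence genes, 3 lay below. Among them Ltf, the gene of lactotransferrin, was 1.03 and 0.36 TPM against 1.47 to 2.75 TPM (adjusted p = 0.145), and Wfdc2, a secreted protease inhibitor, was 1759 and 1263 TPM against 1970.1 to 2233 TPM (adjusted p = 0.145). S100a6, a calcium-binding protein, was called lower, at 2454 to 3052 TPM in intact samples and 1770.2 and 1662 TPM in the clones (adjusted p = 0.0319, and 0.166 with the line as a random effect). Gng5, a G protein subunit, and Slco4a1, an organic anion transporter, were called lower too, with log2 ratios of -0.48 and -0.59, and these calls were lost with the line as a random effect (adjusted p = 0.0702 and 0.0941). Junction genes stood near the background of 12.5% above and 6.72% below, with 3 of 28 tight junction genes above and 1 below, and 5 of 27 genes of adherens junctions, desmosomes and polarity above and 2 below.

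Some lists not described above lay further from the background of 12.5% above and 6.72% below. Of 22 tested genes of calcium stores, channels and pumps, 5 (22.7%) lay above and 1 below. Among 45 Rab GTPases, 9 (20%) lay above and 2 below, and among 18 heat shock proteins, 2 lay above and 4 (22.2%) below. Among 12 CAMK2 isoforms, calmodulin genes and related kinases, 3 lay above and 2 below. The lists of proliferation genes and of inferred CAMK2D targets stood near or under the background. Of 43 tested genes of proliferation and mitosis, 1 lay above and 1 below, with a median log2 ratio of 0.07. This median joins clones that went in opposite directions. The list median was -0.11 and 0.27 log2 units from the intact mean in KO clones 1 and 2, and -0.11 to 0.21 in intact samples. Its summed TPM was 6942 and 9729 in the clones and 7390 to 8622 in intact samples. Of 35 inferred phosphorylation targets of CAMK2D, a list taken from the study of these clones, 2 lay above and 3 below, and Ahnak was the 1 called (adjusted p = 0.17 with the line as a random effect). Tmsb4x, an actin-binding protein of that list, was 1089.6 and 1259 TPM in the clones and 1382 to 1659.5 TPM in intact samples (limma adjusted p = 0.181).

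**Figure D5:**
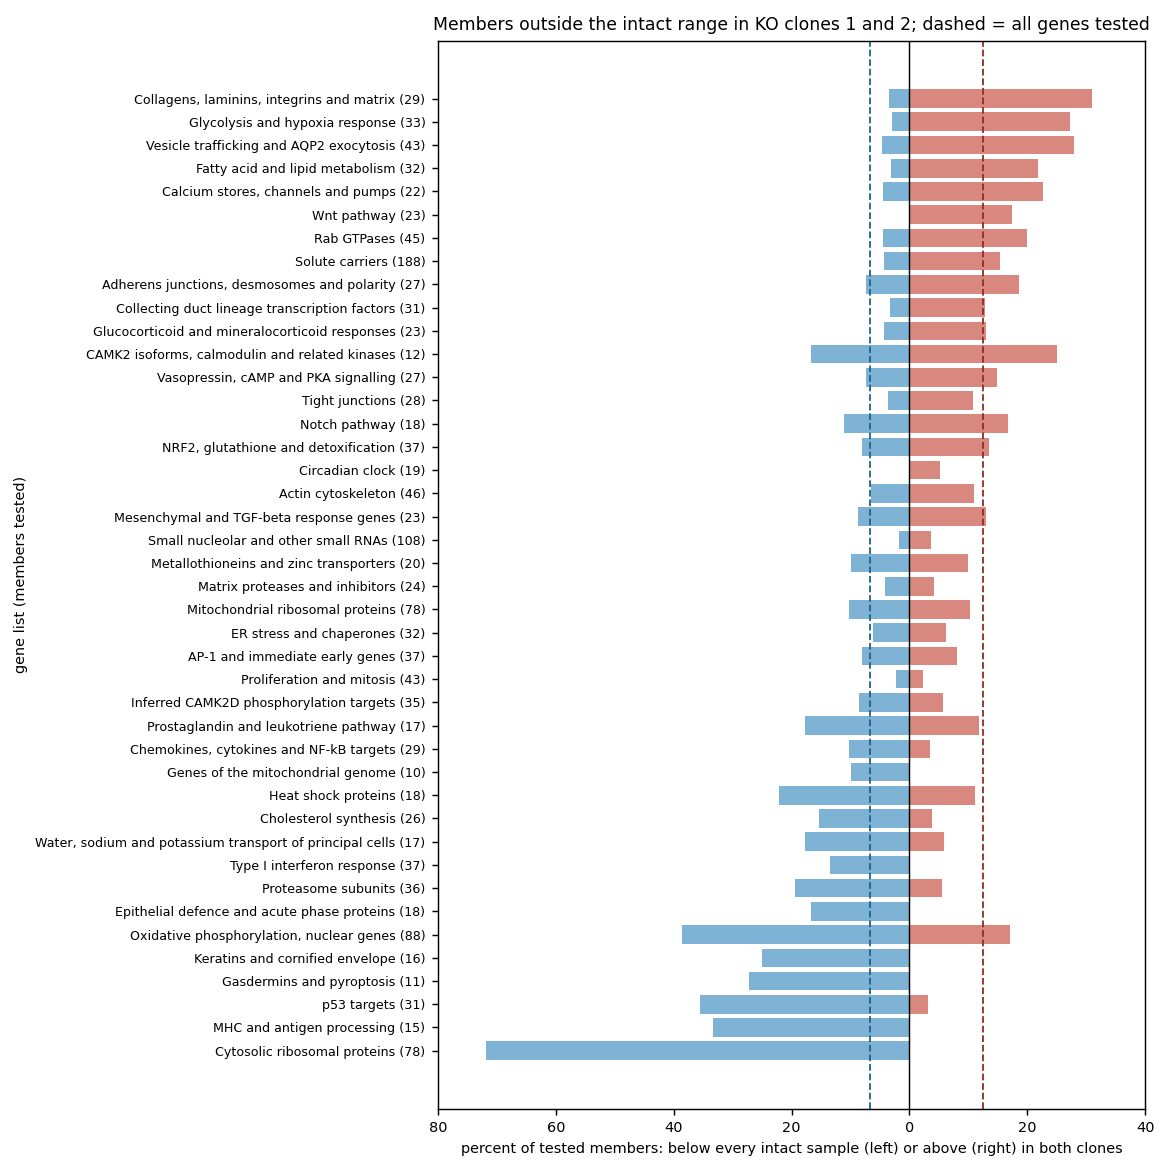
Percent of the tested members (x axis) of 42 gene lists (rows) that lay below (blue, left) or above (red, right) every intact sample in both clones; dashed lines mark all genes tested, 6.72% and 12.5%. Ribosomal proteins reach 71.8% below, oxidative phosphorylation 38.6% and p53 targets 35.5%, and the matrix list reaches 31.0% above.

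The clones also differed from each other. In KO clone 1, 256 of the 13093 genes tested were at least 2-fold from the intact mean and outside the intact range, and in KO clone 2 there were 377. The 42 genes moved alike are 16.4% of the former and 11.1% of the latter, and 24 of the 13093 passed this limit in opposite directions. Whether this overlap differs from what the 2 counts alone would give was not tested. Vnn1, the gene of vanin 1, was 30.8 TPM in KO clone 1, 6.46 TPM in KO clone 2 and 3.18 to 6.68 TPM in intact samples. Mme, the gene of neprilysin, was 40.2, 12.9 and 9.83 to 16.01 TPM in the same order. Both were thus high in KO clone 1 alone. Rnf186, a ubiquitin ligase, was 25.9 TPM in KO clone 2, 408 TPM in KO clone 1 and 317 to 411 TPM in intact samples, and Fcgbp, a mucus protein, was 49.04, 216 and 192 to 315 TPM. Gstm4, a glutathione transferase, was 0.04 TPM in KO clone 2, 0.09 TPM in KO clone 5, 10.03 TPM in KO clone 1 and 10.7 to 11.2 TPM in intact samples. These genes were chosen after their values were seen.

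When the 10 samples were fitted as 3 groups, 19 genes were higher (0.146% of 13047) and 45 lower (0.345%) in KO clones 1 and 2 than in the exon 9 clones by limma, and 1925 had an unadjusted p under 0.05. With 1 value per intact line, 3 genes were called higher, among them Snord59a and n-R5s33, and 0 lower, so that the lower calls given here were lost. Camk2d was not called (log2 difference -0.20, standard error 0.12, limma adjusted p = 0.488). Aqp2 was lower in the exon 8 clones by this test (-1.13, adjusted p = 0.0365), as were Sprr2g (-1.74, adjusted p = 0.0332), C3 (-2.45, adjusted p = 0.0337) and Rps29 (-0.62, adjusted p = 0.00849). Hacd1 was higher (1.09, adjusted p = 0.0208). Of the 19 genes called higher, 5 (Slc39a8, Dapk1, Rgcc, Snord59a and n-R5s33) average under 1 TPM in the 8 other samples and entered the test only through the exon 8 clones, so their calls are no support. Dapk1, a calmodulin-dependent death kinase, was 2.27 and 3.55 TPM in KO clones 1 and 2, 0.60, 0.50 and 0.35 TPM in KO clones 3 to 5 and 0.47 to 1.13 TPM in intact samples. For Gsdmc4 the difference was -0.73 (adjusted p = 0.163).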

How the data were processed

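RNA was sequenced as amplified full-length cDNA, and the authors aligned reads with STAR and quantified genes with RSEM against Ensembl. The deposited table holds TPM per gene and sample, scaled to the same total in every sample by the authors. Genes with a mean of at least 1 TPM were tested on log2(TPM + 1) with limma 3.58.1 (R 4.3.3, statmod 1.5.0), Benjamini-Hochberg adjusted over all genes, with calls at 0.05. TPM are not counts, so the count test of the study was not run. Tables and plots used Python 3.11.15, pandas 2.3.3, numpy 2.4.6 and matplotlib 3.10.9. The test was checked on simulated data. Named were the CAMK2 isoforms, up to 12 genes per direction moved alike (those past limma first), and per list up to 4 called and 2 moved alike; other named genes were chosen after their values were seen. The members and the 52 gene lists were chosen with earlier results of these data known. Lengths and sequences came from GENCODE M21 and RefSeq on GRCm38, not the build of the table, and serve only as descriptions. Alternatives covered the pseudocount, filter, scaling, moderation, the intact lines and each left-out sample.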

Additional observations from a re-analysis of the deposited data

Results flagged for a closer look

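In 10 of 110 groups of 5 intact samples, 1 sample stood apart from the other 4 by Dixon's criterion, which flags about 1 in 20 groups by chance. The parental line stood apart in Itga5 (6.66 TPM), Gpc4 (5.57 TPM) and Hsd11b2 (24.5 TPM). Intact sample 1_1 stood apart in Ndufa1 (283 TPM) and Mylk (35 TPM), and intact sample 1_2 in Lamb3 (70.2 TPM), Gm22362 (4.07 TPM) and Mir466i (5.82 TPM). Intact sample 2_2 stood apart in Rps21 (166 TPM) and Gm10443 (28.1 TPM).

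The exon 8 and exon 9 clones differed in a test of the difference itself (limma, adjusted p under 0.05) for 24 of the named genes, given as log2 exon 8 minus exon 9. Lower in the exon 8 clones were S100a6 (-0.67), Ndufa1 (-0.45), Ccng1 (-1.06), Aqp2 (-1.13), C3 (-2.45), Rps29 (-0.62), Ndufa3 (-0.42), Rps21 (-0.52), Sprr2g (-1.74), Rpl38 (-0.66), Rps28 (-0.58), Rpl37a (-0.57), Rps26 (-0.52), Gng5 (-0.50), Psrc1 (-1.25) and Gm10443 (-1.33). Higher were Atg4d (0.48), Dapk1 (1.38), Ak3 (0.30), Pnpla2 (0.33), Slc39a8 (3.31), Hacd1 (1.09), Snord59a (5.66) and n-R5s33 (2.88), of which Snord59a and n-R5s33 (listed at 0 in every other sample), Slc39a8 and Dapk1 average under 1 TPM in the 8 other samples and entered the test only through the exon 8 clones, so their difference is no support. With 1 value per intact line, 3 genes were called higher and 0 lower in this contrast.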

How the results depend on the processing

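No paired analysis was possible because the KO and intact groups share no replicate numbers. Of the 48 genes called against 5 intact samples, all kept their direction in every setting that tested them. The count was 15 for limma without an intensity trend, 3 with 1 value per intact line, 15 with the line as a random effect, 158 in a fit of all 10 samples, 42 among protein-coding genes alone (which leaves 37 of the 48 genes tested) and 14 among these after centring by coding length, and 11 to 1842 with 1 sample left out. It was 28 without the parental line, 18 without 1_1, 19 without 1_2, 11 without 2_1 and 15 without 2_2. Leaving out KO clone 1 gave 1842 and leaving out KO clone 2 gave 429, where the lone clone is assumed to vary like the intact samples. With all genes above 0 TPM the split was 38 higher and 25 lower. Against 3 intact lines the count of 3 became 8 with all genes above 0 TPM and 6 without the trend, and 1 to 594 with 1 sample left out. The 42 genes moved alike became 91 with a pseudocount of 0.1, 21 at a mean of at least 5 TPM, 156 at 1.5-fold 19 among protein-coding genes alone and 20 among these after centring by coding length, and 45 to 383 with 1 sample left out. The 64 genes between exon 8 and exon 9 clones became 31 without the trend and 3 with 1 value per line, and 16 to 1850 with 1 sample left out; with all genes above 0 TPM they split into 46 higher and 23 lower. With 1 clone, 15 (without KO clone 1) and 19 (without KO clone 2) of 31 p53 targets lay below every intact sample, beside 23.3% and 22.3% of all genes.

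The log2 ratio of Camk2g was -0.017 after median-ratio rescaling, -0.02 per line, -0.028 after quantile normalization, -0.009 with a random effect, -0.04 and -0.053 after centring by transcript and coding length, and -0.292 to 0.332 with 1 sample left out. That of Trp53 was 0.004 per line, 0.001 with a random effect, and -0.077 to 0.063 with 1 sample left out. With 1 sample left out, Gsdma ranged from -0.172 to 0.13 (without KO clone 1), Camk2b from -0.038 (without KO clone 1) to 0.623, Rnf186 from -3.732 to 0.195 (without KO clone 2), and Hsd11b2 from -0.703 (without KO clone 2) to 2.508. Apart from the genes left out, the cause of these changes was not tested. TPM give no depth, so precision rests on 2 clones and 5 samples. The settings for gene length, small RNAs and list counts, and all settings for the intact lines and the exon 9 contrast beyond those planned, were chosen after seeing the data.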
